A study of Mus musculus with 6 samples.

Results

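This account covers 52 listed genes that code for the nuclear receptors and the hepatocyte transcription factors of the mouse liver, in livers with activated β-catenin. The genes were taken from an expression table of 31950 genes by their names. The table held 51 of them. The name Xbp1os had no row and is not analysed here.

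Nuclear receptors are transcription factors that bind lipid-soluble ligands such as bile acids, fatty acids, retinoids, sterols, steroid and thyroid hormones and drugs. Many of them bind DNA as pairs with a retinoid X receptor (RXR), and the pair recruits coactivators or corepressors depending on the ligand. In hepatocytes they work beside a core of liver-enriched factors, among them HNF4α, the FOXA proteins, the ONECUT proteins and the C/EBPs, which hold one another's genes active and set the genes for albumin, apolipoproteins, clotting factors, gluconeogenesis and detoxification. The liver lobule is zoned between the portal vein and the central vein, and Wnt/β-catenin signaling is the best known signal of the zone next to the central vein.

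RNA-seq was performed on whole livers of 3 WT and 3 β-cateninΔ(ex3)/+ mice, with 1 library per liver. All were C57BL/6 mice of 8 weeks. The labels give the control livers as WT, and the mutant livers as having 1 β-catenin (Ctnnb1) allele without exon 3. That exon holds the residues whose phosphorylation sends the protein to degradation. The methods of the study describe deletion of exon 3 in adult liver either by a tamoxifen-inducible Cre under the albumin promoter, which acts in hepatocytes, or by a Cre adenovirus that gives mosaic deletion. The name β-cateninΔ(ex3)/+ is the one the study uses for the livers of the tamoxifen model, while the methods for RNA-seq do not state the route in words, whether the WT mice had the same treatment, or the sex of the mice. Poly(A) RNA was sequenced, and the deposited value is the FPKM of each gene. FPKM are the fragments of a gene relative to its transcript length and to all fragments of the library. Levels of different genes can therefore be set side by side within a liver. Between livers, small differences in FPKM also depend on how the libraries are scaled. The FPKM of all genes summed to 445026 to 446738 in the WT livers and to 463382 to 472042 in the mutant livers.

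Some facts on these livers bear on every comparison below. Gene-level Ctnnb1 was 27.0 ± 1.06 FPKM in WT and 25.2 ± 0.175 FPKM in mutant livers (mean ± SD, n = 3 livers per group, here and below), and such values cannot show the loss of 1 exon. The Wnt target Glul, which codes for glutamine synthetase, was 103 ± 1.25 FPKM in WT and 626 ± 7.13 FPKM in mutant livers, and Axin2 was 1.11 ± 0.416 and 6.57 ± 0.601 FPKM. The groups also differed in sex-linked genes: Xist was 21.2 FPKM in WT and 0.00913 FPKM in mutant livers, and the Y-linked Eif2s3y was 0.00563 and 9.51 FPKM. The summed FPKM of 6 fetal liver genes was 3813 to 3880 in the WT and 3.98 to 4.39 in the mutant livers, with H19 at 2353 and 0.026 FPKM and Afp at 608 and 2.55 FPKM. The summed FPKM of 6 hepatocyte markers was 71537 to 74923 in WT and 38313 to 38606 in mutant livers, the highest of the cell type marker lists in both groups. Of the 6, 1 was higher and 2 lower at both thresholds, and 3 were higher and 3 lower at the adjusted p from limma, with a median log2 fold change of -0.03, so the sum follows the most abundant of them. The sex-linked and fetal splits were complete over the 6 livers, so genotype, sex and the stage that the fetal genes mark cannot be told apart in any result given here. The fetal genes were high in the WT livers although the labels give both groups the same age, and that age was not tested. Between replicates, the 1854 genes of at least 20 FPKM had a median coefficient of variation of 4.50% in WT and 3.31% in mutant livers.

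Of the 51 transcription factor genes, 45 passed a mean of 0.5 FPKM and were tested among 13243 such genes with limma on the log2(FPKM + 1) scale, with Benjamini-Hochberg adjustment over all of them. The scale understates the change of genes of low FPKM, so ratios of group means are given beside it. At an adjusted p under 0.05 and a change of at least 2-fold, 5 were higher in mutant livers, namely Hnf4a, Cebpb, Nr1h3, Ppard and Rara, and 2 were lower, namely Creb3l3 and Lhx2. That is 11.1% and 4.44% of the 45, where 8.17% of all tested genes were higher and 4.52% lower. At the adjusted p alone, 21 were higher and 12 lower, or 46.7% and 26.7% of the 45, beside 37.4% and 19.6% of all tested genes. The 3 mutant values lay above the 3 WT values for 21 of the 45 and below them for 14, or 46.7% and 31.1%, beside 43.0% and 23.0% of all tested genes. A two-sided exact permutation test of 3 livers against 3 cannot give a p below 0.1, and each gene whose groups did not overlap had that value. The median absolute log2 fold change was 0.57 over the 45 and 0.35 over all tested genes, and 55.6% of the 45 against 35.7% of all tested genes changed by at least 0.5 on the log2 scale.

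**Figure D1:**
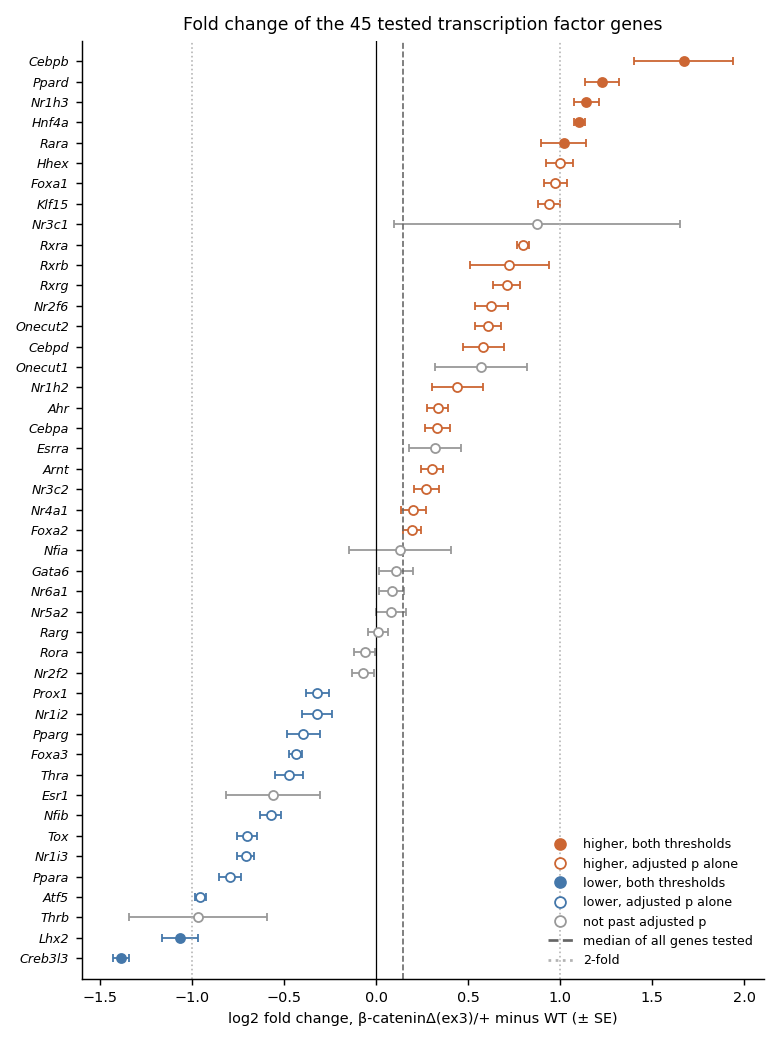
The log2 fold change of the 45 tested genes, mutant minus WT on the log2(FPKM + 1) scale, with its standard error from limma; filled points passed both thresholds, open colored points the adjusted p alone, gray points neither. Cebpb was the highest at 1.67 and Creb3l3 the lowest at -1.39, and the dashed line marks the median of all tested genes, 0.14.

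The direction of small changes depended on the scaling of the libraries. The median of all tested genes was 0.14 above zero as deposited, and median-ratio scaling moved it by -0.14 and quantile normalization by -0.16. Among the calls over all genes at both thresholds, 1082 were higher and 598 lower as deposited, or 64.4% higher, against 851 and 751 (53.1%) with median-ratio scaling and 804 and 804 (50.0%) with quantile normalization. Of the transcription factor genes, 2 were then higher (Cebpb and Ppard) and 4 lower (Creb3l3, Lhx2, Atf5 and Thrb) under either scaling. At the adjusted p alone, 14 of the 21 higher genes and all 12 lower genes kept their call under both. The 7 that lost it were Foxa2, Cebpa, Nr1h2, Ahr, Rxrb, Nr3c2 and Nr4a1, and 3 genes became lower, Thrb, Rora and Nr2f2.

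**Figure D2:**
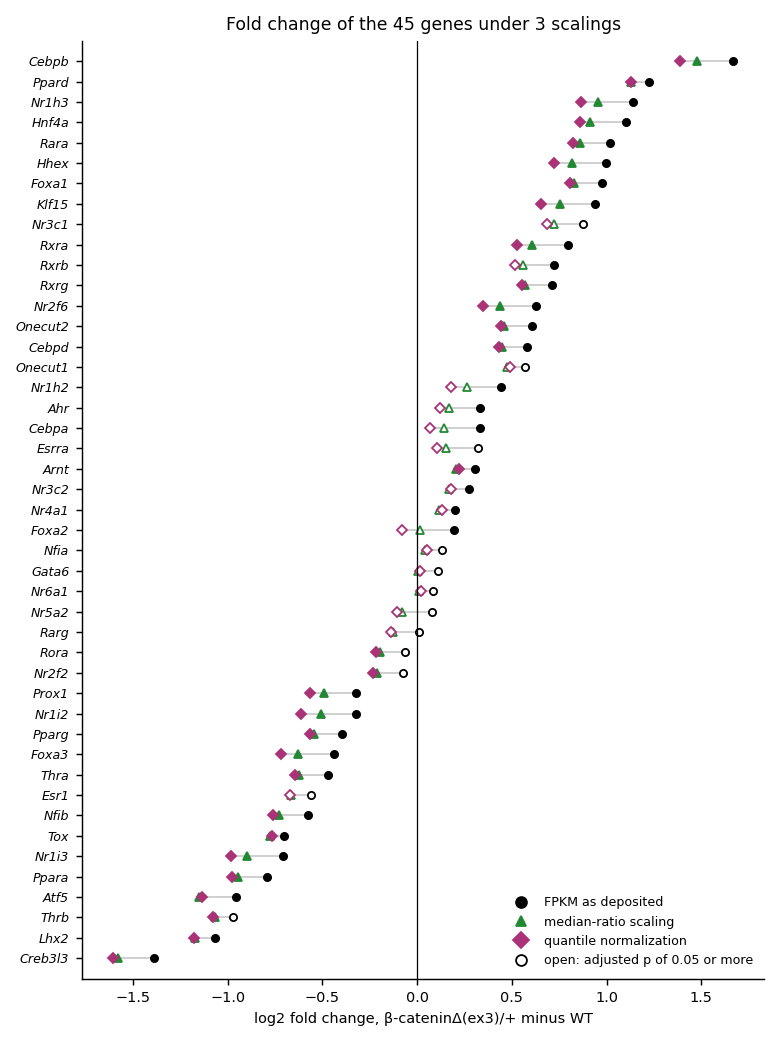
The log2 fold change of the same 45 genes, mutant minus WT, from FPKM as deposited (circles), after median-ratio scaling (triangles) and after quantile normalization (diamonds); open symbols have an adjusted p of 0.05 or more. Most values shift to the left, by less for low genes such as Tox (-0.70 to -0.77 under both) than for abundant ones such as Hnf4a (1.10 to 0.91 and 0.86). Foxa2, Nr5a2 and Rarg cross zero under at least 1 of the other scalings.

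Promoters of Klf15 and of 4 of the 7 genes called at both thresholds, Hnf4a, Cebpb, Ppard and Creb3l3, were chosen after their values were seen and are shown here so that the motifs through which transcription factors act can be seen beside the levels. RefSeq promoters on GRCm38.p6, 250 bases before to 50 bases after a transcription start, matched 42 of the 51 genes and gave 67 promoters. Capitals mark 5 motifs searched on both strands: the TCF/LEF motif (CTTTGAT or CTTTGAA) that β-catenin's partners bind, a forkhead motif (TGTTTAC or TGTTTGC), the E-box CACGTG, the TATA box TATAAA and the GC box GGGCGG. Overlapping matches are joined in 1 run of capitals. Hnf4a has a distal and a proximal start 40298 bases apart, known as P2 and P1, and the liver of the adult mainly uses the proximal one.
Hnf4a distal start, chr2:163506607-163506906, plus strand: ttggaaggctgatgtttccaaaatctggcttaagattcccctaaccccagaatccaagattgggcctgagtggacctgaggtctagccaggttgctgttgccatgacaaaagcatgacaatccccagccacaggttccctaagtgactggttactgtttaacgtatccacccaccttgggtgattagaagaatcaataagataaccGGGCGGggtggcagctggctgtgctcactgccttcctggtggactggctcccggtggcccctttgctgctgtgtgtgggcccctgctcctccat
Hnf4a proximal start, chr2:163546905-163547204, plus strand: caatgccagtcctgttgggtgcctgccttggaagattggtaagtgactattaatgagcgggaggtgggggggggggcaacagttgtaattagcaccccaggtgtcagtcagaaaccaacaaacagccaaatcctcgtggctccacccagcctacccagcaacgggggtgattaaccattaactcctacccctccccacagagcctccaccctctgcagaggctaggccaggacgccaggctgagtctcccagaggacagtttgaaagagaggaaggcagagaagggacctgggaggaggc
Cebpb, chr2:167688665-167688964, plus strand: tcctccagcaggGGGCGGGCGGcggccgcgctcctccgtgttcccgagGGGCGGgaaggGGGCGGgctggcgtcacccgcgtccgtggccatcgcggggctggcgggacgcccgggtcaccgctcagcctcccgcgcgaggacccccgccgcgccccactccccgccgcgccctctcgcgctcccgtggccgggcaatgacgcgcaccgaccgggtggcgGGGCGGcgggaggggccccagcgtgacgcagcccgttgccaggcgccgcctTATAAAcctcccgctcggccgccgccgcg
Ppard, chr17:28232504-28232803, plus strand: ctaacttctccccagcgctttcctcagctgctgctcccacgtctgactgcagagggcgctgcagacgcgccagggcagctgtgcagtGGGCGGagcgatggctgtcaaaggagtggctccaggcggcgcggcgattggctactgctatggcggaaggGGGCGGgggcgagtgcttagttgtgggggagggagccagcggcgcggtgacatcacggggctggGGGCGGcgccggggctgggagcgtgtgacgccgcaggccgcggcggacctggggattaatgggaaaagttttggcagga
Creb3l3, chr10:81098823-81099122, minus strand: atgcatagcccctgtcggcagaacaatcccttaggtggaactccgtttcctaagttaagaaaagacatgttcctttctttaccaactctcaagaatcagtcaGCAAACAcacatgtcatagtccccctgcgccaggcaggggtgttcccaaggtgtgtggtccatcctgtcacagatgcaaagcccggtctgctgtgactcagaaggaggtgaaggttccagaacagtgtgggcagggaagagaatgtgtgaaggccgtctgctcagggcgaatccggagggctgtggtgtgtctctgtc
Klf15, chr6:90462326-90462625, plus strand: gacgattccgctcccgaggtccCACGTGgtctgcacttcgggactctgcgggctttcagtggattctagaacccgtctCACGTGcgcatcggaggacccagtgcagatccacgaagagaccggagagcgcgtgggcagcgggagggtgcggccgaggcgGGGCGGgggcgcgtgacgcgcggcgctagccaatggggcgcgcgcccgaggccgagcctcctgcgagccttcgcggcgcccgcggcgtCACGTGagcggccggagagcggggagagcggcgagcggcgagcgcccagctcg
The 2 Hnf4a starts differed in that the distal one held a GC box and the proximal one none of the 5 motifs. Cebpb and Ppard had GC-rich promoters, 80.7% and 68.3% G or C, with 5 and 3 GC boxes, while Creb3l3 was 53.0% G or C and held a forkhead motif. None of these 6 windows held the TCF/LEF motif. Over the 67 promoters, the GC box was found in 53.7% and in 35.9% of 32544 promoters of all genes, the forkhead motif in 11.9% and 8.49%, the E-box in 8.96% and 7.17%, the TATA box in 14.9% and 13.6%, and the TCF/LEF motif in 7.46% and 8.67%. The TCF/LEF motif stood in promoters of Esrrg, Foxa2, Nfia, Nr1i2 and Nr2f2, of which Foxa2 was higher, Nr1i2 lower, Nfia and Nr2f2 past no threshold and Esrrg too low to be tested. A match is only a match of letters.

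Among the core hepatocyte factors, 18 of 19 were tested, and at the adjusted p 9 were higher, 5 lower and 4 neither. For this class and those below, the shares over all tested genes were 37.4% higher and 19.6% lower. Hnf4a (ENSMUSG00000017950, chromosome 2 from 163506808 to 163572905 in the deposited table) codes for HNF4α, which maintains the differentiated hepatocyte. It was measured at 56.7, 58.6 and 57.6 FPKM in WT replicates 1 to 3 and at 125.2, 123.8 and 125.8 FPKM in mutant replicates 1 to 3. The groups were far apart and each was tight. The mutant mean was 2.17 times the WT mean, with a log2 fold change of 1.10 ± 0.03 (SE, limma adjusted p = 1.24e-06). After median-ratio scaling and quantile normalization the change was 0.91 and 0.86, under 2-fold, with adjusted p-values from limma of 3.39e-06 and 8.82e-06. Ranked by FPKM among the 51 genes, Hnf4a stood at 4 in WT and at 2 in mutant livers, behind Atf5. Gene-level values do not tell its P1 and P2 transcripts apart. Its paralogue Hnf4g was at 0.0636 FPKM in WT and 0.0462 FPKM in mutant livers and was not tested. In whole liver, fewer cells of a type and less RNA per cell cannot be told apart, for this gene and for those that follow.

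**Figure D3:**
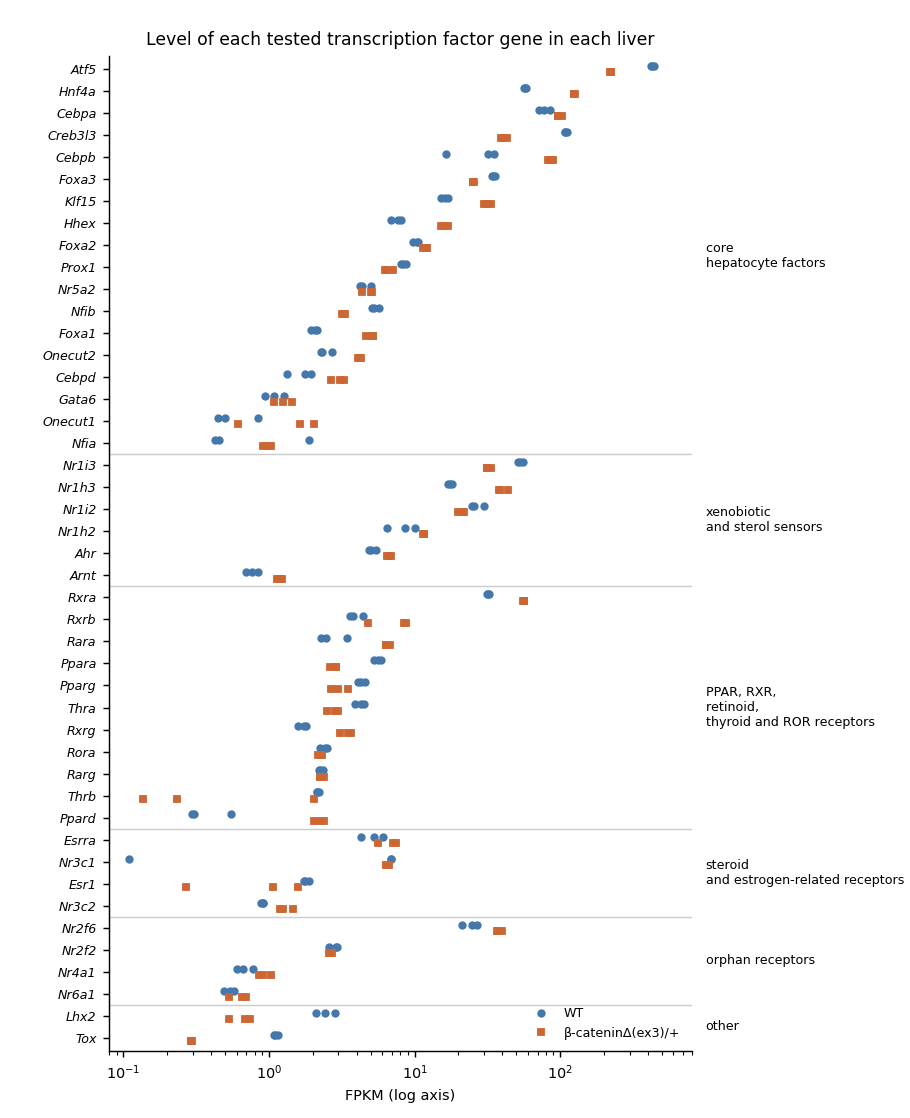
FPKM of the 45 tested genes in each of the 6 livers on a log axis, grouped by role and ordered by level; circles are WT and squares mutant livers. Levels run from Atf5, at 432 FPKM in WT and 222 FPKM in mutant livers, down to genes below 1 FPKM, and for most genes the circles and squares do not overlap.

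The FOXA pioneer factors open liver enhancers for other factors, and the 3 paralogues did not move together. Foxa1 was 2.13, 1.95 and 2.07 FPKM in WT and 4.65, 5.17 and 5.15 FPKM in mutant livers. It was thus 2.44 times higher by group means, and 0.97 ± 0.06 on the log2 scale (limma adjusted p = 4.40e-05), with 1.02 when mutant replicate 1 was left out. Foxa3 was 34.6, 34.0 and 35.6 FPKM in WT and 25.2, 25.5 and 25.3 FPKM in mutant livers, and fell by 0.44 ± 0.04 (limma adjusted p = 0.000142). Foxa2 was 10.3 ± 0.422 and 11.9 ± 0.369 FPKM, a log2 fold change of 0.20 (limma adjusted p = 0.017, or 0.0543 without mutant replicate 1) that was 0.02 with median-ratio scaling and -0.08 with quantile normalization. Foxa3 remained the main FOXA transcript, with 73.8% of the family's FPKM in WT and 60.0% in mutant livers, while Foxa1 went from 4.36% to 11.8%. The summed family was 47.0 ± 1.31 FPKM in WT and 42.3 ± 0.385 FPKM in mutant livers, so the makeup changed more than the sum.

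The ONECUT factors, which act in hepatocyte and bile duct development, were low. Onecut2 was 2.28, 2.72 and 2.30 FPKM in WT and 4.26, 4.32 and 4.07 FPKM in mutant livers, with a log2 fold change of 0.61 ± 0.07 (limma adjusted p = 0.000611). Onecut1 (HNF6) was 0.835, 0.444 and 0.501 FPKM in WT and 1.65, 2.04 and 0.612 FPKM in mutant livers. Its groups overlapped through mutant replicate 3, and its limma adjusted p was 0.0981 with all livers and 0.00613 without that replicate. In GENCODE M21, 52.8% of the Onecut1 exon bases are shared with the lincRNA Gm20649 on the same strand, which was at 0.000342 FPKM, so the split of its reads is uncertain.

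Of the C/EBP factors, Cebpb had the largest log2 fold change among the 45 tested genes on the log2(FPKM + 1) scale, although Ppard had the larger ratio of means. C/EBPβ responds to inflammatory and growth signals in liver, whereas C/EBPα is the factor of the resting, differentiated hepatocyte. Cebpb was 34.9, 16.5 and 31.8 FPKM in WT and 89.9, 81.9 and 86.7 FPKM in mutant livers. WT replicate 2 lay apart, and every mutant value was still over the highest WT value. By group means it was 3.11 times higher, with a log2 fold change of 1.67 ± 0.27 (limma adjusted p = 0.00276). Cebpa was 78.0 ± 6.65 and 98.2 ± 3.52 FPKM, a log2 fold change of 0.33 ± 0.07 (limma adjusted p = 0.0071) that did not pass under either scaling (0.14 and 0.07, limma adjusted p = 0.119 and 0.455). Cebpd, an acute phase factor, was 1.69 ± 0.324 and 3.01 ± 0.322 FPKM, with a log2 fold change of 0.58 ± 0.11 (limma adjusted p = 0.00568). Cebpb made up 25.4 ± 7.47% of the 3 genes' FPKM in WT and 46.0 ± 0.769% in mutant livers. Macrophages also express Cebpb, and the summed FPKM of 6 Kupffer cell markers was 156 to 160 in WT and 454 to 466 in mutant livers, with 4 of the 6 higher at both thresholds, all 6 at the adjusted p and a median log2 fold change of 1.22; their part in the Cebpb values was not tested. Tmem189 on the opposite strand shares 20.7% of the Cebpb exon bases, at a mean of 3.79 FPKM.

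Hhex, a homeobox gene of the early liver bud, and Klf15, a regulator of amino acid breakdown and gluconeogenesis, were both higher by a similar factor. Hhex was 8.06, 6.87 and 7.74 FPKM in WT and 17.05, 15.2 and 15.9 FPKM in mutant livers. At 0.996 ± 0.07 on the log2 scale (limma adjusted p = 8.60e-05) it fell just short of the 2-fold threshold, and it passed, at 1.001 to 1.04, without WT replicate 1 or 3 or mutant replicate 2 or 3. Klf15 was 16.3, 15.2 and 16.9 FPKM in WT and 33.7, 30.1 and 31.7 FPKM in mutant livers, 0.94 ± 0.06 on the log2 scale (limma adjusted p = 5.23e-05). Its promoter, printed above, was the one with 3 E-boxes. Prox1, a homeobox gene of hepatoblasts that stays on in hepatocytes, was lower, at 8.42 ± 0.33 and 6.55 ± 0.461 FPKM (-0.32 ± 0.06, limma adjusted p = 0.00587).

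Creb3l3 and Atf5 were the core genes that fell most on the log2 scale. Creb3l3 codes for CREBH, a membrane-bound factor that is cleaved during fasting and stress and turns on triglyceride and iron genes. It was 107, 108 and 112 FPKM in WT and 43.0, 40.8 and 39.4 FPKM in mutant livers, without overlap. The WT mean was 2.65 times the mutant mean, a log2 fold change of -1.39 ± 0.04 (limma adjusted p = 2.42e-06), and it went from rank 2 to rank 6 among the 51 genes. Atf5, a factor of the mitochondrial stress response, was the most abundant of the 51 in both groups, at 444, 419 and 431 FPKM in WT and 222, 224 and 220.4 FPKM in mutant livers. Its log2 fold change of -0.96 ± 0.03 (limma adjusted p = 2.42e-06) did not reach 2-fold as deposited and did with median-ratio scaling (-1.15) and quantile normalization (-1.14). Nfib, a nuclear factor I gene, fell by 0.57 ± 0.06 on the log2 scale, from 5.35 ± 0.32 to 3.26 ± 0.0584 FPKM (limma adjusted p = 0.000317).

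Gata6, Nr5a2 and Nfia, like Onecut1, passed no threshold. Gata6, a factor of the early endoderm, was 1.10 ± 0.167 and 1.26 ± 0.172 FPKM. Nr5a2 (LRH-1), which drives bile acid synthesis genes, was 4.52 ± 0.425 and 4.83 ± 0.388 FPKM. The groups overlapped for all 4. Of 12 genes listed as HNF4A targets, 2 were higher and 2 lower at both thresholds, and 6 and 5 at the adjusted p, with a median log2 fold change of 0.20 beside 0.14 over all genes. The largest changes among them were in Cyp7a1, the rate-limiting enzyme of bile acid synthesis, at 3.06 ± 0.0775 and 20.2 ± 0.755 FPKM, and in Apoc3, an inhibitor of lipoprotein lipase, at 204 ± 4.14 and 925 ± 14.6 FPKM. The target list thus split, with members higher and members lower in about equal number.

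**Figure D4:**
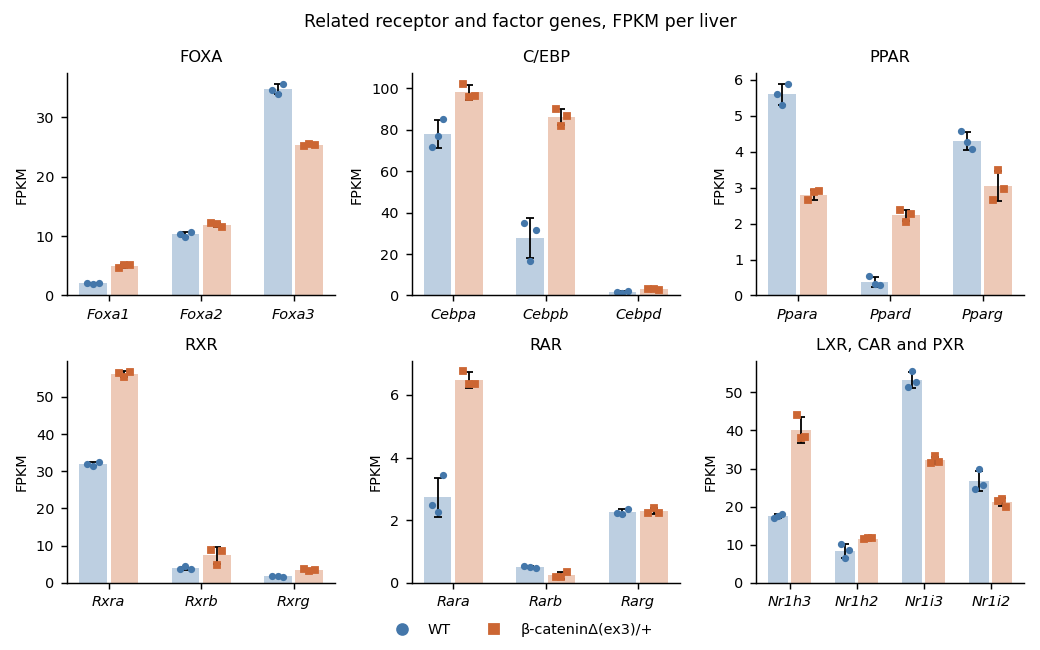
FPKM of related genes in 6 families, one panel each with its own linear axis from 0; bars are means of 3 livers, error bars SD, and symbols the livers. Foxa3, Ppara and Nr1i3 are lower in mutant livers while Foxa1, Ppard and Nr1h3 of the same panels are higher, and all 3 RXR genes are higher.

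The xenobiotic and sterol sensors did not move in a single direction. Nr1i3 (CAR) and Nr1i2 (PXR), the drug sensors that turn on cytochrome P450 genes, were lower, whereas the oxysterol receptors Nr1h3 (LXRα) and Nr1h2 (LXRβ) and the dioxin receptor Ahr with its partner Arnt were higher at the adjusted p. Of the 7 genes in this class 6 were tested, and all 6 passed it, 4 higher and 2 lower, beside 37.4% higher and 19.6% lower of all tested genes. Nr1i3 was 51.4, 55.6 and 52.8 FPKM in WT and 31.6, 33.3 and 31.7 FPKM in mutant livers, and fell by 0.71 ± 0.04 on the log2 scale (limma adjusted p = 4.67e-05). Nr1i2 was 24.7, 29.8 and 25.6 FPKM in WT and 21.4, 22.0 and 20.01 FPKM in mutant livers. It fell by 0.32 ± 0.08 (limma adjusted p = 0.0158), or by 0.28 (limma adjusted p = 0.0515) without mutant replicate 3. Together they summed to 80.0 ± 4.86 FPKM in WT and 53.3 ± 1.84 FPKM in mutant livers. Tomm40l on the opposite strand shares 74.9% of the Nr1i3 exon bases and had a mean of 3.40 FPKM. The libraries mark strand, and whether counting used it is not given in the sources used here.

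Nr1h3 was 17.1, 17.7 and 18.1 FPKM in WT and 44.0, 37.9 and 38.4 FPKM in mutant livers. The 3 mutant values were all over the WT values, by 2.28 times in the means and 1.14 ± 0.07 on the log2 scale (limma adjusted p = 3.31e-05). It was 0.95 with median-ratio scaling and 0.87 with quantile normalization. Nr1h2 was 10.1, 6.51 and 8.55 FPKM in WT and 11.5, 11.6 and 11.7 FPKM in mutant livers. Its log2 fold change of 0.44 ± 0.14 (limma adjusted p = 0.037) was lost, at adjusted p-values from limma of 0.0753 to 0.0894, without WT replicate 3 or any 1 mutant replicate. The LXR pair summed to 26.0 ± 1.60 and 51.7 ± 3.28 FPKM. LXRα is also a receptor of Kupffer cells, whose markers rose as given for Cebpb; their part in the Nr1h3 values was not tested. Ahr was 5.11 ± 0.307 and 6.69 ± 0.173 FPKM and Arnt 0.767 ± 0.0686 and 1.18 ± 0.0442 FPKM. Ahr did not pass under the other scalings, with adjusted p-values from limma of 0.0517 and 0.125, and Arnt passed under both. Vdr, the vitamin D receptor that hepatocytes hardly express, was 0.0216 FPKM in WT and listed at 0 in each mutant liver.

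The genes these sensors are known to regulate moved in both directions. Of 11 PXR and CAR targets, 3 were higher and 1 lower at both thresholds (5 and 3 at the adjusted p), with a median log2 fold change of 0.02. Cyp2c29, a P450 of drug metabolism, was 17.1 ± 0.596 and 191 ± 2.59 FPKM, and the conjugate exporter Abcc3 was 4.40 ± 0.234 and 23.7 ± 1.197 FPKM, both higher while Nr1i3 and Nr1i2 were lower. Of 3 tested AhR targets, Cyp1a2, the caffeine-metabolizing P450 of the pericentral zone, was higher at both thresholds, at 65.2 ± 1.41 and 367 ± 7.05 FPKM. Of 10 LXR targets, 3 were higher and 2 lower (5 and 4 at the adjusted p), with a median of 0.08. The fatty acid desaturase Scd1 went from 0.808 ± 0.05 to 276 ± 3.12 FPKM and fatty acid synthase, Fasn, from 2.92 ± 0.109 to 57.9 ± 8.33 FPKM.

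The PPAR genes showed opposite changes. PPARα turns on fatty acid oxidation and ketone body synthesis in fasting, PPARδ has related targets in many tissues, and PPARγ drives fat storage. Ppara was 5.62, 5.30 and 5.88 FPKM in WT and 2.65, 2.87 and 2.90 FPKM in mutant livers. It fell by 0.79 ± 0.06 on the log2 scale (limma adjusted p = 9.55e-05), although the WT mean was 2.00 times the mutant mean, which shows how the added 1 FPKM shrinks changes at this level. Ppard was 0.547, 0.307 and 0.298 FPKM in WT and 2.37, 2.05 and 2.26 FPKM in mutant livers, 5.80 times higher by the means and 1.23 ± 0.09 on the log2 scale (limma adjusted p = 9.59e-05). Both held under the other scalings. Pparg was 4.57, 4.27 and 4.07 FPKM in WT and 2.67, 3.49 and 2.97 FPKM in mutant livers, a fall by 0.40 ± 0.09 (limma adjusted p = 0.0105). Ppara therefore held 54.4 ± 2.62% of the 3 genes' FPKM in WT and 34.7 ± 0.807% in mutant livers, Ppard 3.70 ± 1.21% and 27.7 ± 3.24%, and Pparg 41.8 ± 1.87% and 37.6 ± 3.50%. Kupffer and stellate cells express Pparg as well, and the summed FPKM of 8 stellate cell markers was 91.3 to 94.2 in WT and 27.0 to 30.4 in mutant livers, with 5 of the 8 lower at both thresholds, all 8 at the adjusted p and a median log2 fold change of -1.29; their part in the Pparg values was not tested.

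Most genes listed as PPARA targets were lower, as Ppara was. Of the 15, 4 were lower and 2 higher at both thresholds, and 11 were lower and 3 higher at the adjusted p, with a median log2 fold change of -0.86. The ω-hydroxylase gene Cyp4a14 was 233 ± 7.71 FPKM in WT and 3.28 ± 0.371 FPKM in mutant livers, and the fasting hormone Fgf21 was 42.5 ± 1.08 and 0.152 ± 0.176 FPKM. With median-ratio scaling and quantile normalization, 10 and 11 of the 15 passed both thresholds in place of 6.

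All 3 RXR genes were higher in mutant livers. Rxra, the main hepatic RXR, was 32.0, 31.3 and 32.4 FPKM in WT and 56.6, 55.3 and 56.7 FPKM in mutant livers, without overlap, and its log2 fold change was 0.80 ± 0.03 (limma adjusted p = 7.97e-06). Rxrg was 1.74, 1.79 and 1.58 FPKM in WT and 3.67, 3.09 and 3.50 FPKM in mutant livers, 0.71 ± 0.07 on the log2 scale (limma adjusted p = 0.000374). Rxrb was 3.81, 4.43 and 3.61 FPKM in WT and 8.78, 4.79 and 8.51 FPKM in mutant livers, where replicate 2 stood only just over the WT values. Its call (0.72 ± 0.21, limma adjusted p = 0.0292) was lost under both scalings and without any 1 of the livers other than mutant replicate 2, at adjusted p-values from limma of 0.0503 to 0.0865. The 3 genes summed to 37.6 ± 0.0183 FPKM in WT and 67.0 ± 3.27 FPKM in mutant livers, 1.78 times as much. Of the listed genes, 13 that code for partners of RXR summed to 128 ± 2.36 FPKM in WT and 126 ± 4.41 FPKM in mutant livers. They were the LXR, PXR, CAR, PPAR, RAR, thyroid hormone and vitamin D receptors. The low Nr4a1 and Nr4a2, which can also pair with RXR, were left out. Partners outside the listed genes, such as the FXR genes Nr1h4 and Nr1h5, were not counted either, so the partner sum is not complete. The ratio of RXR to the 13 counted partners was 0.293 ± 0.00541 in WT and 0.533 ± 0.0312 in mutant livers. It is a ratio within each library that no scaling of libraries by 1 factor can change. FPKM are levels of mRNA and not of protein.

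Among the retinoic acid receptors, Rara was higher, Rarg did not pass and Rarb was too low to be tested. Rara was 2.47, 2.26 and 3.45 FPKM in WT and 6.76, 6.35 and 6.34 FPKM in mutant livers, 2.38 times higher by the means. Its log2 fold change of 1.02 ± 0.12 (limma adjusted p = 0.000758) was just over 2-fold, and it went under 2-fold under both scalings (0.86 and 0.83) and without WT replicate 1 (0.97), WT replicate 2 (0.93) or mutant replicate 1 (0.99). Rarg was 2.27 ± 0.0884 and 2.29 ± 0.0956 FPKM. Rarb, which stellate cells express, was 0.507 ± 0.0281 and 0.234 ± 0.108 FPKM, and shares 34.1% of its exon bases with Top2b on the opposite strand. The share of Rara in the 3 genes' FPKM went from 49.2% to 72.0%. Of 5 tested RAR targets, 1 was higher and 3 lower at both thresholds, with a median log2 fold change of -1.28. Cyp26a1, the enzyme that clears retinoic acid and is induced by it, was 0.0888 ± 0.0511 FPKM in WT and 33.3 ± 1.199 FPKM in mutant livers. Lrat, which makes retinyl esters in stellate cells, was 5.14 ± 0.23 and 1.28 ± 0.161 FPKM and is itself 1 of the stellate cell markers.

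Both thyroid hormone receptor genes had their mutant values below the WT values. Thra was 4.52, 3.90 and 4.31 FPKM in WT and 2.86, 2.98 and 2.50 FPKM in mutant livers, and fell by 0.47 ± 0.08 on the log2 scale (limma adjusted p = 0.00276). Thrb, known for the hormone responses of liver, was 2.14, 2.22 and 2.15 FPKM in WT and 2.03, 0.233 and 0.137 FPKM in mutant livers. Mutant replicate 1 was close to the WT values and the other two were far below them. The adjusted p from limma was 0.0686 with all livers (-0.97 ± 0.37), 0.000125 without mutant replicate 1 (-1.42), and 0.0467 and 0.0444 under the other scalings. Thra was the more abundant transcript of the pair, with 66.1 ± 2.14% of its FPKM in WT and 82.0 ± 20.4% in mutant livers. Rora, a clock and lipid receptor, was 2.39 ± 0.131 and 2.25 ± 0.075 FPKM and passed no threshold as deposited. Of 5 tested thyroid hormone targets, 3 were higher and none lower at both thresholds in limma, and 4 were higher at the adjusted p, with a median log2 fold change of 1.503 and 0 lower even at an unadjusted p of 0.05. The fifth, the deiodinase gene Dio1, was 34.6 ± 1.01 and 32.4 ± 1.75 FPKM (limma adjusted p = 0.173, chosen after its values were seen). Thrsp (Spot 14), a lipogenic gene, was 0.258 ± 0.113 FPKM in WT and 165 ± 2.16 FPKM in mutant livers, and malic enzyme, Me1, was 4.78 ± 0.256 and 25.8 ± 0.75 FPKM.

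Of the 4 tested steroid and estrogen-related receptors none passed both thresholds in limma, and 1 was higher at the adjusted p and at an unadjusted p of 0.05. Nr3c1, the glucocorticoid receptor, was 6.91, 6.88 and 0.109 FPKM in WT and 6.35, 6.70 and 6.52 FPKM in mutant livers. A single value, that of WT replicate 3, set the log2 fold change of 0.87 ± 0.77 (limma adjusted p = 0.374), which was -0.07 (limma adjusted p = 0.337) without it. Between 52 and 130 of the 13243 tested genes in each liver were likewise at least 5 times lower than in both other livers of the group. Nr3c2, the mineralocorticoid receptor, was 0.903 ± 0.02 and 1.302 ± 0.151 FPKM, 0.27 ± 0.07 on the log2 scale (limma adjusted p = 0.0159), a call that both scalings removed (limma adjusted p = 0.0807 and 0.0655). Esr1, estrogen receptor α, was 1.73, 1.88 and 1.78 FPKM in WT and 1.07, 0.269 and 1.59 FPKM in mutant livers. The groups did not overlap and the mutant livers varied about as much as the groups differed (-0.56 ± 0.26, limma adjusted p = 0.107, or -0.79 and 0.033 without mutant replicate 3). Esrra, which drives mitochondrial genes, was 5.19 ± 0.881 and 6.72 ± 0.964 FPKM and overlapped, with limma adjusted p = 0.0959, or 0.0465 without mutant replicate 2. Esrrg was 0.352 ± 0.0678 and 0.155 ± 0.0263 FPKM and was not tested.

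Genes known to respond to glucocorticoids moved both ways, with 3 of 9 higher and 4 lower at both thresholds and a median log2 fold change of -0.63. Tyrosine aminotransferase, Tat, was 48.9 ± 1.73 FPKM in WT and 334 ± 4.87 FPKM in mutant livers, whereas glucose-6-phosphatase, G6pc, was 164 ± 5.05 and 38.9 ± 0.759 FPKM. Nr3c1 itself was between 6.35 and 6.91 FPKM in 5 of the 6 livers, and its part in the Tat and G6pc values was not tested.

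**Figure D5:**
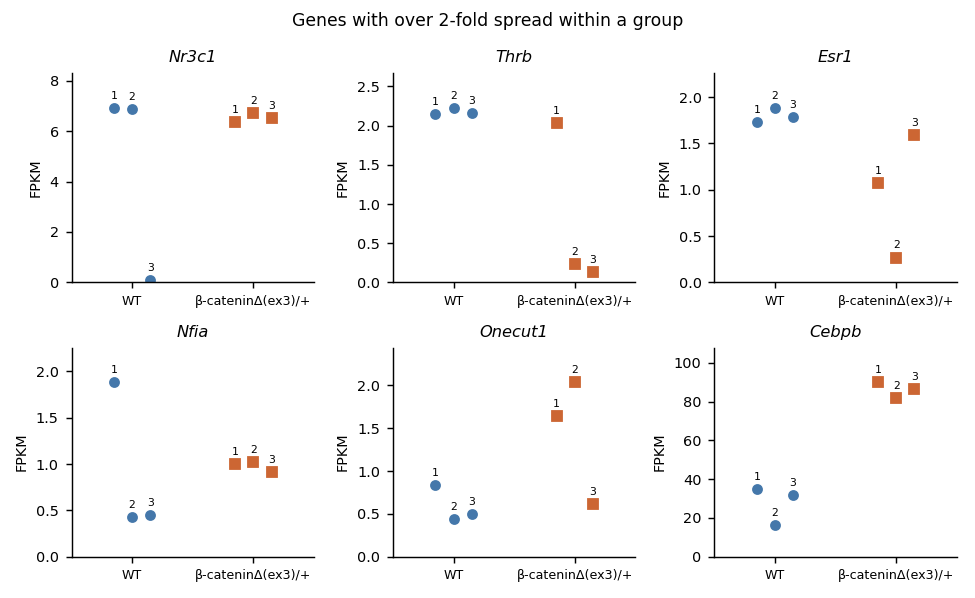
FPKM in each liver, numbered by replicate, of the 6 tested genes whose highest value in a group was over 2 times the lowest; each panel has its own linear axis from 0. WT replicate 3 stands at 0.109 FPKM for Nr3c1, and mutant replicates 2 and 3 stand at 0.233 and 0.137 FPKM for Thrb, while Cebpb keeps its groups apart.

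Such spread was the exception. The median coefficient of variation within a group was 6.93% in WT and 4.94% in mutant livers over the 45 genes, and 3 genes in each group varied over 2-fold, Cebpb, Nfia and Nr3c1 in WT and Onecut1, Thrb and Esr1 in mutant livers. Nfia was 1.88, 0.425 and 0.452 FPKM in WT and 1.01, 1.03 and 0.918 FPKM in mutant livers. WT replicate 1 was the high one, and the log2 fold change was 0.13 with it (limma adjusted p = 0.717) and 0.46 without it (limma adjusted p = 0.00435). No single liver was the outlying one for all 6 genes.

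Of the orphan receptors, 4 of 6 were tested, and 2 were higher at the adjusted p. Nr2f6 (EAR2), a repressor related to the COUP-TFs, was the only abundant one, at 27.1, 21.3 and 24.8 FPKM in WT and 39.6, 37.1 and 37.2 FPKM in mutant livers (0.63 ± 0.09, limma adjusted p = 0.00161). Ocel1 on the opposite strand shares 54.4% of its exon bases, at a mean of 3.93 FPKM. Nr4a1 (NUR77), an immediate early gene, was 0.681 ± 0.0859 and 0.932 ± 0.0863 FPKM, with a limma adjusted p of 0.0489 that was lost under both scalings and without any 1 liver other than WT replicate 3 (0.0624 to 0.13). Nr2f2 (COUP-TFII), a gene of venous endothelium and stellate cells as well as hepatocytes, was 2.82 ± 0.195 and 2.63 ± 0.0604 FPKM, and Nr6a1 was 0.535 ± 0.0415 and 0.627 ± 0.0863 FPKM. Neither passed as deposited. Nr2f1 (COUP-TFI) was 0.308 ± 0.0815 and 0.133 ± 0.0121 FPKM and Nr4a2 0.0985 ± 0.0488 and 0.107 ± 0.0453 FPKM, both too low to be tested.

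Lhx2 and Tox, a pair not tied to hepatocytes, were both lower. Lhx2, a LIM homeobox gene that keeps stellate cells quiescent, was 2.85, 2.12 and 2.44 FPKM in WT and 0.536, 0.741 and 0.684 FPKM in mutant livers. The WT mean was 3.78 times the mutant mean, with a log2 fold change of -1.07 ± 0.10 (limma adjusted p = 0.000237), or -0.99 without WT replicate 1, which left 1 gene lower at both thresholds in place of 2. The stellate cell markers fell as given for Pparg, among them Reln from 7.22 to 0.701 FPKM and Ngfr from 4.66 to 1.35 FPKM, and their part in the Lhx2, Rarb and Nr2f1 values was not tested. Tox, an HMG-box gene of developing T cells, was 1.08, 1.15 and 1.10 FPKM in WT and 0.29, 0.298 and 0.294 FPKM in mutant livers. The WT mean was 3.77 times the mutant mean, while on the log2(FPKM + 1) scale the gene fell by 0.70 ± 0.05 (limma adjusted p = 0.000107), short of 2-fold; with 0.1 FPKM added in place of 1 it fell by 1.62. The summed FPKM of 6 lymphocyte markers was 16.5 to 17.9 in WT and 7.27 to 8.89 in mutant livers. Of the 4 tested, 0 were higher and 2 lower at both thresholds, and 1 and 2 at the adjusted p. Cd3e was at 0.205 and 0.502 FPKM, Cd3g at 0.917 and 0.789 FPKM and Cd79a at 10.4 and 1.48 FPKM. The part of these markers in the Tox values was not tested.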

How the data were processed

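Poly(A) RNA of 3 WT and 3 β-cateninΔ(ex3)/+ livers was sequenced, 1 library per liver, and groups follow the sample labels. The authors deposited FPKM per gene and liver for 31950 genes, with 0 columns left unused here. Their processing notes name cutadapt 1.9, HISAT2 2.0.4, StringTie 1.3.4d, DESeq2 and edgeR, without roles or order. The genome build is not given in the sources used here; 28911 gene coordinates are identical to those of GENCODE M21 (GRCm38). FPKM are not counts, so no counting interval can be given. Steps in the low values of 8647 single-exon genes gave rough depths of 24.5 to 24.65 M fragments in WT and 16.95 to 19.55 M in mutant livers. Only 21.7% to 29.2% of the values checked lay on these steps. A search among larger depths gave 49.0 to 49.5 M in WT and 33.95 to 39.1 M in mutant livers. It put more values on the steps, 26.3% to 35.0%, so the depth may be a multiple of the first estimates.

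Genes with a mean of at least 0.5 FPKM were tested on log2(FPKM + 1) with limma 3.58.1 (lmFit, eBayes with trend) in R 4.3.3, with Benjamini-Hochberg adjustment over 13243 genes. Calls needed an adjusted p under 0.05, with or without a change of at least 2-fold. The fit was tested on simulated data. Sums, shares and motif searches were computed in Python 3.11.15 (numpy 2.4.6, pandas 2.3.3), exact tests with scipy 1.17.1 and plots with matplotlib 3.10.9. Nothing says that the livers came from separate litters, so p-values measure the spread between these livers. As alternatives, each liver was left out in turn, the replicate number was added as a block, the libraries were rescaled by median ratios or quantiles, the pseudocount was set to 0.1, the filter was dropped or raised to 1 FPKM, and eBayes was run with no trend. The genes, the lists of targets and markers, and the rule for named genes (every listed factor, and in other lists the 2 called genes with the largest change) were chosen with earlier results of these data known. No set test was run.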

Additional observations from a re-analysis of the deposited data

How the results depend on the processing

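Over the 45 tested genes and all alternatives, 547 of 580 comparisons kept their direction and their joint call (adjusted p and 2-fold together), 10 lost that call, 13 gained it, and 10, in 5 genes, changed sign. At the adjusted p alone, 38 comparisons lost the call and 12 gained it, in 15 genes. In 19 of the 45 genes no alternative changed the sign, the joint call or the adjusted p call. The 5 higher genes became 2 with median-ratio scaling and 2 with quantile normalization, and the 2 lower genes became 4 and 4. The median log2 fold change of 0.20 was 0.37 with a pseudocount of 0.1, 0.11 without a filter, 0.30 at a mean of at least 1 FPKM, 0.12 with median-ratio scaling and 0.067 with quantile normalization. Leaving out 1 liver gave 4 to 6 higher and 1 to 3 lower genes (1 without WT replicate 1). At the adjusted p it gave 17 to 20 higher and 12 to 13 lower, with a median of 0.17 to 0.26. The groups of 35 to 39 genes did not overlap. Groups of 2 and 3 livers separate more readily by chance, and the share over all genes was not computed for them. These counts therefore cannot be set beside the count with all livers. The changes of sign were in Foxa2 (-0.079 with quantile normalization), Nr5a2 (-0.081 with median-ratio scaling, -0.11 with quantile normalization), Rarg (-0.13 and -0.14 under these scalings, and -0.015 to 0.032 with 1 liver left out, below zero at -0.015 and -0.0036 without mutant replicate 2 and WT replicate 2), Nfia (-0.045 to 0.46 with 1 liver left out, below zero at -0.045 and -0.031 without WT replicate 2 and 3) and Nr3c1 (-0.070 to 1.35, below zero without WT replicate 3). The cause was not tested.

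No pairing of the livers by replicate number was seen. Deviations of same-numbered livers correlated at 0.027, 0.021 and -0.0054, and those of different-numbered livers at -0.036 to 0.012. Such low values cannot show that the livers were unpaired. With the replicate block, 5 genes were higher and 2 lower at both thresholds, and 18 and 12 at the adjusted p; Foxa2, Nr1h2, Rxrb and Nr4a1 were lost and Esrra was gained. Of the lists, 283 of 286 counts stayed within 1.5 times, and the others were the PPARA targets under both scalings and the cholangiocyte markers with a pseudocount of 0.1 (2 called in place of 1). FPKM keep no depth, so low genes have an error that could not be computed.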

Other observations

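Among 14 further nuclear receptor genes, 7 were tested and none was higher in limma, at either threshold or at an unadjusted p of 0.05, while 2 were lower at both thresholds and 4 at the adjusted p, with a median log2 fold change of -0.21. Nr1h5, the lanosterol receptor FXRβ, was 4.89 ± 0.68 FPKM in WT and 1.10 ± 0.13 FPKM in mutant livers. Nr1d2 (REV-ERBβ), a repressor of the circadian clock, was 5.67 ± 0.547 and 1.44 ± 0.15 FPKM. Of 28 other liver transcription factors tested, 6 were higher and 3 lower at both thresholds, with a median of 0.20. At the adjusted p, 14 of the 28 were higher and 8 lower. Bcl6, a repressor with higher levels in male than in female mouse liver, was 0.283 ± 0.041 FPKM in WT and 6.44 ± 0.271 FPKM in mutant livers, and Dbp, a clock output factor, was 5.19 ± 0.616 and 0.437 ± 0.107 FPKM. The sex-linked genes split the same livers, and the time of day of collection is not given in the sources used here. Of 13 coregulators of nuclear receptors, none passed both thresholds in limma, with a median of 0.13. At the adjusted p 4 were higher and 0 lower, and 5 and 0 at an unadjusted p of 0.05. Beside these counts, 8.17% of all tested genes were higher and 4.52% lower at both thresholds, and 37.4% and 19.6% at the adjusted p.

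The marker lists of other cell types also differed between the groups. Endothelial markers summed to 81.2 to 83.5 FPKM in WT and 52.1 to 54.1 FPKM in mutant livers. Of these, 2 of 7 were lower at both thresholds and all 7 at the adjusted p. Cholangiocyte markers summed to 39.6 to 43.1 and 18.5 to 19.3 FPKM (1 of 4 tested lower), erythroid markers to 1566 to 1710 and 799 to 825 FPKM (3 of 6 lower), and proliferation markers to 7.86 to 8.33 and 13.9 to 15.0 FPKM (1 of 4 higher). At the adjusted p, 2 cholangiocyte and 5 erythroid markers were lower and 0 higher, and all 4 proliferation markers were higher. The part of these lists in the values of the transcription factors was not tested.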
